A study of Mus musculus with 8 samples.

Results

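The regulators of pre-mRNA splicing were examined as a family of 52 genes, chosen by symbol from the 40840 genes listed for each library. They comprise 11 SR protein genes, 6 genes of SR-like proteins, 6 SR protein kinase genes, 22 hnRNP genes and 7 genes of other RNA-binding regulators, and all 52 passed the filter of at least 10 counts in total. RNA was sequenced from primary mouse myofibroblastic hepatic stellate cells (pMF-HSCs), the collagen-secreting cells that arise on plastic from the retinoid-storing pericytes of liver. The cells were isolated from livers of wild-type male C57BL/6J mice aged 15 to 18 wk, with sorting on retinol autofluorescence per the study's methods, and were cultured for 7 d in medium with serum. Per the labels, they then received vehicle (DMSO, control, n = 4) or 50 µM of OSMI-1 (OGTi, n = 4) for 24 h. The target of OSMI-1 is O-GlcNAc transferase (OGT), which attaches the sugar O-GlcNAc to serine and threonine residues of nuclear and cytosolic proteins. The labels call the replicates biological, and whether each culture came from 1 mouse or from pooled mice is not given in the sources used here. The comparison asks which splicing regulators changed in transcript level, and which in the length of their transcripts, when the enzyme was inhibited.

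SR proteins carry a domain rich in arginine-serine repeats and mostly promote the use of the exons they bind. Kinases of the CLK and SRPK families phosphorylate that domain and so set where SR proteins reside and what they bind. hnRNPs coat nascent transcripts and often oppose exon use, and genes of both families commonly hold an alternatively spliced exon that sends the transcript to nonsense-mediated decay, a route by which these proteins limit their own mRNA.

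The libraries held 30068876 to 37372420 expected counts, and the family took 0.540% to 0.660% of the counts in control and 0.432% to 0.467% in OGTi, with no overlap between the groups. The 8 stellate and myofibroblast markers were all present and summed to 2139 to 3778 TPM in control and 1925 to 2973 TPM in OGTi. Of these, Lrat (vitamin A storage) and Pdgfrb (a growth factor receptor) fell on scaled counts, with log2 fold changes of -1.78 and -1.68 (edgeR adjusted p = 0.00232 and 0.00154), and the other 6 were not called. Among these, Col1a1 (a collagen chain) stood at -0.85 and Hand2 (a transcription factor) at -0.84 (edgeR adjusted p = 0.0761 and 0.0709). Des (desmin) at -0.19 and Acta2 (smooth muscle actin) at 0.05 lay nearer 0. Col1a1 had 44481 to 114895 scaled counts in control. In OGTi it had 9628 in replicate 1 and 59231 to 88192 in the other libraries. Proliferation genes moved with the groups, since 7 of 8 fell and their summed level was 211.6 to 425.6 TPM in control and 117.4 to 208.7 TPM in OGTi. The 6 hepatocyte markers summed to 0.08 to 0.6 TPM in control and 0.57 to 1.67 TPM in OGTi, and of these Cyp2e1 was called higher. The 6 endothelial markers summed to 1.43 to 2.78 TPM in control and 0.32 to 0.88 TPM in OGTi, and of these Tek and Lyve1 were called lower. The 6 macrophage markers summed to 18.5 to 36.7 TPM in control and 30.2 to 71.6 TPM in OGTi, mostly from Cd68, a lysosomal protein gene that rose by 1.5 on the log2 scale (edgeR adjusted p = 0.0015). Csf1r stood at 2.22 to 6.66 TPM and C1qa at 0 to 5.57 TPM, and Adgre1, Clec4f and Ptprc stayed under 1 TPM. Of the 4 cholangiocyte and epithelial markers, which summed to 87.0 to 139.1 TPM in control and 46.8 to 79.2 TPM in OGTi, Krt19 gave most of the signal and was called lower, and Epcam and Cdh1 stayed under 1 TPM. The part of these markers in the results was not tested. In bulk RNA, fewer cells of a type and less RNA per cell cannot be told apart.

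Levels differed widely within the family. By TPM, which is corrected for transcript length, Hnrnpk was highest in control at 721 ± 102 TPM (SD, n = 4), followed by Hnrnpf at 375 ± 38.3 TPM and Hnrnpa2b1 at 270 ± 82.8 TPM. Across control libraries the ranges of Hnrnpf and Hnrnpa2b1 overlapped, yet within each of the 8 libraries Hnrnpf stood above Hnrnpa2b1. Hnrnpk binds cytosine-rich RNA, Hnrnpf binds guanine runs, and Hnrnpa2b1 is a close relative of Hnrnpa1. At the other end, Srsf12 stayed at or below 6.42 scaled counts in each library. Esrp1, an epithelial splicing factor, was at 0 in 7 libraries. TPM is a share of all transcripts in a library and moves with what other genes take, so changes below are given on scaled counts.

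**Figure D1:**
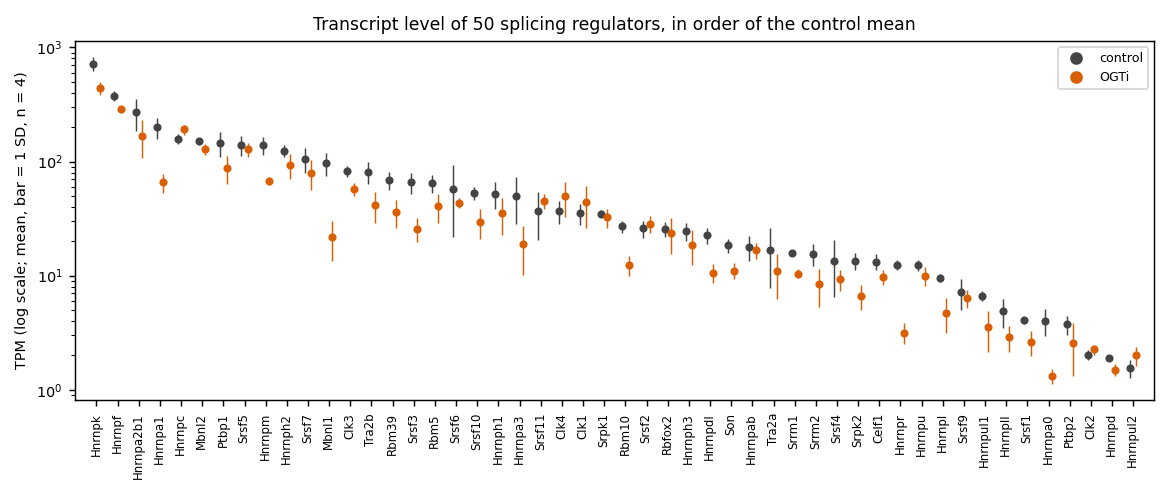
Transcript level in TPM (log scale) of the 50 members other than Srsf12 and Esrp1, ordered by the control mean; points are group means and bars 1 SD over 4 libraries. Hnrnpk stands highest at 721 TPM in control and 443 TPM in OGTi.

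OGTi lowered 12 of the 52 splicing regulators and raised 2 (edgeR quasi-likelihood model paired by replicate, called at a Benjamini-Hochberg adjusted p up to 0.05). The 14 called make up 26.9% of the family, against 18.4% of all 19963 genes tested. The family was chosen with earlier results of these data known. The 18.4%, given again below, includes genes of low count. Among 14797 genes with a mean of at least 10 counts, 25.1% were called, with the same 14 members. Under several other settings, given at the end, the family showed little or no such excess. By direction, 23.1% of the family fell against 10.2% of all genes, and 3.85% rose against 8.13%. The median log2 fold change of the family was -0.28 and that of all genes 0.01, with 36 of the 52 members below 0. By scaled counts, which are counts adjusted for TMM-corrected library size, 14 members had groups that did not overlap, against 23.5% of all genes. Of these, 2 were higher and 12 lower in OGTi, against 11.5% and 12% of all genes.

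**Figure D2:**
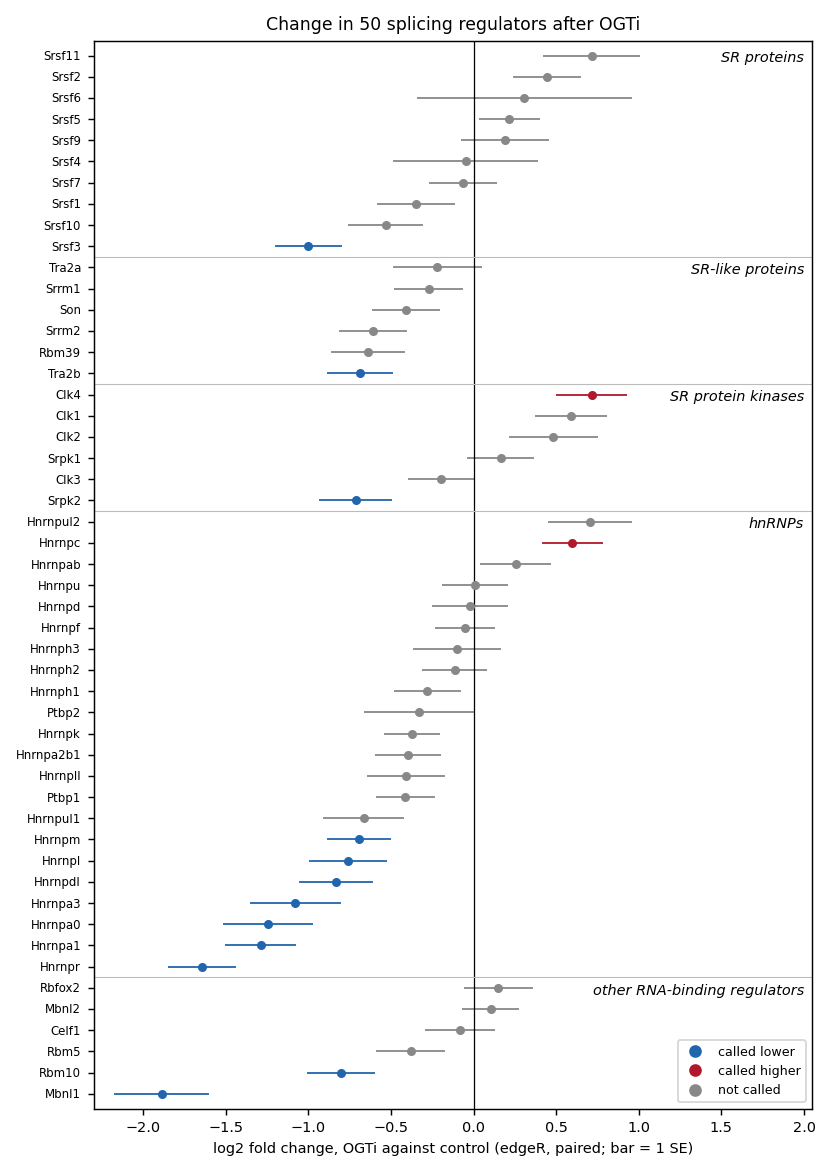
Log2 fold change of OGTi against control on the count scale for the 50 members other than Srsf12 and Esrp1, grouped by role; points are edgeR estimates from 4 pairs, bars 1 SE, and colours mark the calls. Of the hnRNPs, 7 lie among the lower calls and 1 among the higher, while among SR proteins Srsf3 alone was called.

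The hnRNPs held the greatest number of calls, with 7 of 22 lower and 1 higher (36.4% called, against 18.4% of all genes, of which 10.2% were lower and 8.13% higher). Hnrnpr, a relative of the RNA-binding protein Syncrip, had 1989, 2017, 2094 and 2424 scaled counts in control replicates 1 to 4 and 606, 739, 646 and 740 in OGTi replicates 1 to 4. Each OGTi library thus lay far below each control library. Its level in OGTi was 32.0% of control, a log2 fold change of -1.64 ± 0.21 (SE, edgeR adjusted p = 0.000829). Hnrnpa1, an abundant repressor of exon use that also shuttles mRNA out of the nucleus, had 8185, 6355, 4849 and 5579 scaled counts in control and 2333, 2797, 2493 and 2412 in OGTi. The OGTi libraries lay within a narrow band while the control libraries spread, and the groups did not overlap. The log2 fold change was -1.29 ± 0.21 (SE, edgeR adjusted p = 0.00301).

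Of the paralogs of Hnrnpa1, Hnrnpa0 and Hnrnpa3 fell as well. Hnrnpa0 dropped to 41.7% of control, from 134 to 259 scaled counts in control to 66.2 to 112 in OGTi (log2 fold change -1.25 ± 0.27, SE, edgeR adjusted p = 0.0114). Hnrnpa3 had 4311, 1768, 4423 and 6078 scaled counts in control and 1601, 1611, 1330 and 3035 in OGTi, and was lower in 4 of 4 pairs although the groups overlapped. Its log2 fold change was -1.08 ± 0.27 (SE, edgeR adjusted p = 0.0219). Hnrnpa2b1 was not called at -0.40 ± 0.20 (SE, edgeR adjusted p = 0.207). Hnrnpa1 and Hnrnpa3 have processed copies in the genome. How reads that fit several genes were handled could not be checked, so the levels of these genes carry that uncertainty. All 416 expected counts of the members were whole numbers within 0.005. The exons of Hnrnpa3 also overlap those of Gm24574 on the same strand.

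The other hnRNPs that fell were Hnrnpdl, Hnrnpl and Hnrnpm. Hnrnpdl, a relative of Hnrnpd that regulates its own transcript by splicing, changed by -0.84 ± 0.22 on the log2 scale (SE, edgeR adjusted p = 0.028). Hnrnpl, which binds CA repeats, changed by -0.76 ± 0.23 (SE, edgeR adjusted p = 0.0477). Hnrnpm, which binds GU-rich RNA, changed by -0.69 ± 0.19 (SE, edgeR adjusted p = 0.0317), and its exons overlap those of Marchf2 on the same strand. All 3 were lower in 4 of 4 pairs with groups that did not overlap.

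Hnrnpc, which binds uridine runs and keeps cryptic exons out of mRNA, went the opposite way. It had 9268, 8448, 7627 and 9845 scaled counts in control and 15390, 10359, 13157 and 14669 in OGTi, with no overlap. The log2 fold change was 0.60 ± 0.19 (SE, edgeR adjusted p = 0.0489), close to the threshold. Hnrnpul2 had the highest estimate among hnRNPs, at 0.70 ± 0.25, and was not called (SE, edgeR adjusted p = 0.0848). It was called by DESeq2, at 0.75, and with the length trend removed, at 0.97, and its exons overlap those of Gm50139 and of an unnamed gene on the same strand. Of the most abundant members, Hnrnpk stood at -0.37 ± 0.17 and Hnrnpf at -0.05 ± 0.18, and neither was called (SE, edgeR adjusted p = 0.168 and 0.881). Hnrnpk was called lower with library totals alone, at -0.57, and with limma on log2(TPM + 1), at -0.70. Ptbp1 was called lower under the same settings, Hnrnpul1 with library totals alone and Hnrnph1 with limma on log2(TPM + 1).

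Srsf3 was the only SR protein gene of 11 to be called, or 9.09% against 18.4% of all genes. Srsf3 promotes exon inclusion, mRNA export and the choice of polyadenylation site. It had 3165, 3211, 2819 and 4468 scaled counts in control replicates 1 to 4 and 1897, 1320, 1411 and 2259 in OGTi. Every OGTi library lay below every control library, and the group mean was 50.4% of control. The log2 fold change was -1.0 ± 0.20 (SE, edgeR adjusted p = 0.0076). Srsf3 too has a processed copy, so that the caution given for Hnrnpa1 holds for its counts and its length. Under other settings Srsf11 was called without replicate 2 and Srsf2 with the length trend removed. The highest estimate among SR proteins was that of Srsf11, at 0.71 ± 0.29, which was not called (SE, edgeR adjusted p = 0.124).

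Among the SR protein genes a single control library decided the values of Srsf6 and Srsf4, which are named here after their values were seen. Srsf6 had 5119, 5027, 5238 and 292 scaled counts in control replicates 1 to 4 and 3848, 3340, 3583 and 4070 in OGTi. Srsf4 had 783, 923, 959 and 169 in control and 522, 605, 567 and 700 in OGTi. Control replicate 4 was thus the lowest library for both genes, and of 11947 genes with a mean of at least 50 scaled counts, 416 lay at least 4-fold below the rest of their group in that library, against 15 to 106 in the other 3 control libraries. OGTi replicate 1 held more such genes, 520, none of them a member, and the other 3 OGTi libraries held 75 to 112. For Srsf6 the log2 fold change was 0.31 ± 0.65 with all pairs and -0.50 ± 0.21 without replicate 4 (SE, edgeR adjusted p = 0.798 and 0.17). For Srsf4 it was -0.05 ± 0.44 and -0.64 ± 0.25 (SE, edgeR adjusted p = 0.956 and 0.14). Neither gene was called in either fit.

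**Figure D3:**
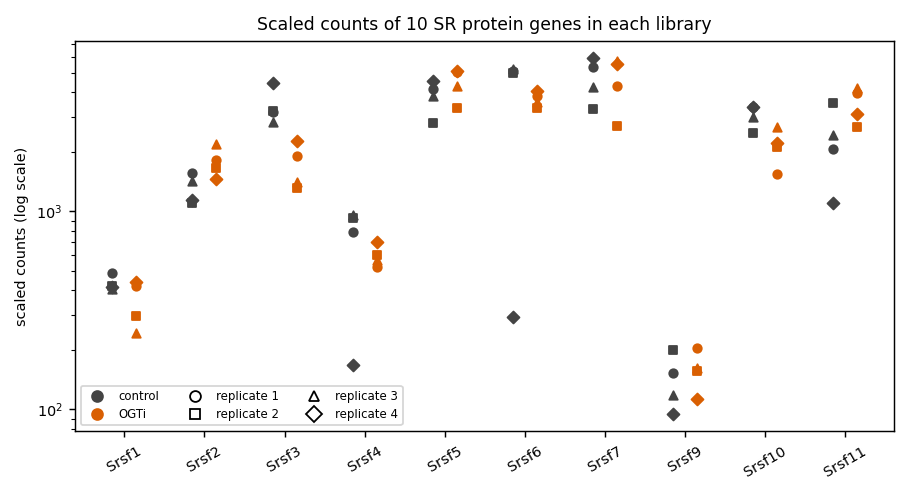
Scaled counts (log scale) of the 10 SR protein genes other than Srsf12 in each library, with control in grey, OGTi in orange and the replicate number given by the symbol. The groups of Srsf3 do not overlap, and control replicate 4 lies far below the other control libraries for Srsf6 at 292 and Srsf4 at 169.

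The SR-like proteins share the arginine-serine repeats, and all 6 had an estimate below 0, from -0.69 to -0.22, although Tra2a was at 0.0404 without replicate 3. Tra2b, which activates exons rich in GAA repeats, was the member called, or 16.7% against 18.4% of all genes. It had 5304, 3561, 4832 and 6129 scaled counts in control and 2904, 1876, 3861 and 3969 in OGTi, lower in 4 of 4 pairs although the groups overlapped. The log2 fold change was -0.69 ± 0.20 (SE, edgeR adjusted p = 0.0386). Its paralog Tra2a had the value nearest 0, at -0.22 ± 0.27 (SE, edgeR adjusted p = 0.633). Under other settings Srrm2 was called lower by DESeq2, and both Srrm2 and Rbm39 with library totals alone and with limma on log2(TPM + 1).

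The SR protein kinases split in direction, with 1 of 6 higher and 1 lower (33.3% called, against 18.4% of all genes). Clk4, a nuclear kinase that phosphorylates SR proteins, had 1339, 1068, 1233 and 1781 scaled counts in control and 2004, 1361, 2681 and 3113 in OGTi. It was higher in 4 of 4 pairs although the groups overlapped, with a log2 fold change of 0.71 ± 0.22 (SE, edgeR adjusted p = 0.0442). Its exons overlap those of Gm55882 on the same strand. Srpk2, a mainly cytoplasmic SR protein kinase, fell by 0.72 on the log2 scale (SE 0.22, edgeR adjusted p = 0.0489), from 1107 to 1628 scaled counts in control to 669 to 973 in OGTi. With the length trend removed it stood at -0.43 and was not called (edgeR adjusted p = 0.232, where the 12 settings gave 0.0179 to 0.269). The other CLK genes are given to complete the kinase family. Clk1 stood at 0.59 ± 0.22, Clk2 at 0.48 ± 0.27 and Clk3 at -0.20 ± 0.20, and none was called (SE, edgeR adjusted p = 0.0897, 0.252 and 0.548). Under other settings Clk1 was called higher by DESeq2, at 0.64, and with upper-quartile scaling, at 0.72, and Clk3 was called lower by limma on log2(TPM + 1), at -0.52. Over the 12 other settings the estimates ranged from 0.26 to 0.77 for Clk1 and from 0.10 to 0.61 for Clk2. Clk1 and Clk2 were higher in 4 of 4 pairs.

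Of the 7 other RNA-binding regulators, 2 fell, or 28.6% against 10.2% of all genes. Mbnl1, a zinc-finger protein that switches transcripts from fetal to adult splice forms, showed the lowest estimate of the whole family. It had 12244, 6965, 11137 and 10615 scaled counts in control and 1747, 3635, 3211 and 2629 in OGTi. The highest OGTi library stood well below the lowest control library, and the mean was 27.4% of control. The log2 fold change was -1.89 ± 0.29 (SE, edgeR adjusted p = 0.00207). Its paralog Mbnl2, named after its value was seen, was not called at 0.10 ± 0.17 (SE, edgeR adjusted p = 0.74). Rbm10, which favours exon skipping, fell by 0.80 on the log2 scale (SE 0.21, edgeR adjusted p = 0.0238).

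**Figure D4:**
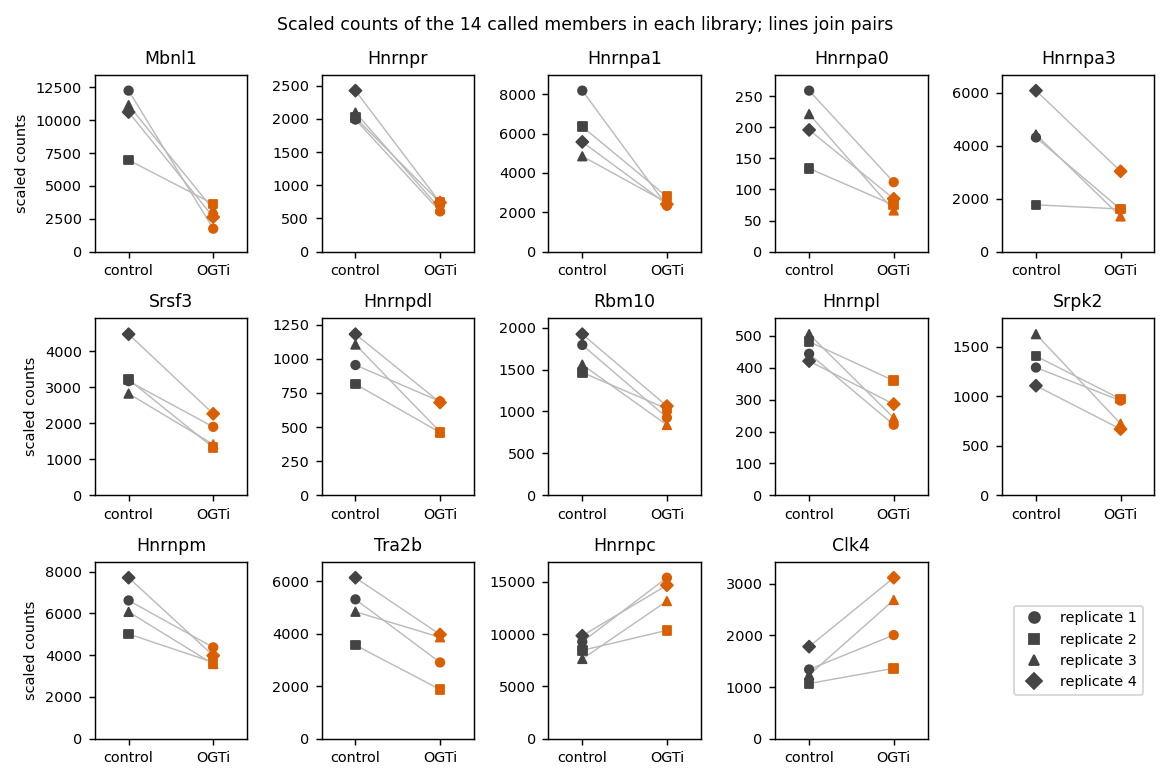
Scaled counts of the 14 called members in each library, with lines that join control and OGTi libraries of the same replicate number and axes that start at 0. All 4 pairs go down for the 12 lower members and up for Hnrnpc and Clk4.

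The 14 calls differed in how they held under 12 other settings of the analysis. Hnrnpr, Mbnl1, Hnrnpa1 and Srsf3 were called under each of them, whereas the other 10 were called under 4 to 11. On GRCm39 these 4 genes lie at chr4:136038247-136086758 (Hnrnpr), chr3:60380102-60537183 (Mbnl1), chr15:103148339-103155125 (Hnrnpa1) and chr17:29251321-29262347 (Srsf3), all on the plus strand. Without replicate 3 the same 4 were the only calls left. Hnrnpa0 was called under 11, Rbm10 under 10, Hnrnpdl and Hnrnpm under 8, Hnrnpa3 under 7, Srpk2 under 6, and Hnrnpl and Tra2b under 5, and their estimates stayed below 0. Clk4 was called under 6 and Hnrnpc under 4, and their estimates stayed above 0, at 0.38 to 0.86 and 0.28 to 0.74. Clk4 and Hnrnpc lost their calls when libraries were scaled by totals alone.

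Promoters of Hnrnpa1 (lower in OGTi), of Srsf3 (the SR protein gene that fell) and of Clk4 (the kinase gene that rose) are given as RefSeq gives them on GRCm38.p6, from 250 bases before to 50 bases after the start of the gene. Capitals mark a CCAAT box (CCAAT, or ATTGG on the other strand), a CRE (TGACGTCA) or an NRF1 core (GCATGCGC), each searched on both strands.
Hnrnpa1 promoter, chr15:103240147-103240446, plus strand: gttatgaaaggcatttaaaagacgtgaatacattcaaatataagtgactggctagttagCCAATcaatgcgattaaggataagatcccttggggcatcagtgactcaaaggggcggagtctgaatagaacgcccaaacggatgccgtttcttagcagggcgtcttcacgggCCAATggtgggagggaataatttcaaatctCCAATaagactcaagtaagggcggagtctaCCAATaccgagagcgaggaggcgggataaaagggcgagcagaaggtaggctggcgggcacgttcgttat
Srsf3 promoter, chr17:29032410-29032709, plus strand: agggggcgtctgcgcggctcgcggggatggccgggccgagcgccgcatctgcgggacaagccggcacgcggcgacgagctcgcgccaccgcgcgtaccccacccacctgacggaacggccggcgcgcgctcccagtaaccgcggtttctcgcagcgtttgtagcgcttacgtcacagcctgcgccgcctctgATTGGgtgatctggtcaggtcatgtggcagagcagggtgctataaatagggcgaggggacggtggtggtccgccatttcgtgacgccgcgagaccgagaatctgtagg
Clk4 promoter, chr11:51262864-51263163, plus strand: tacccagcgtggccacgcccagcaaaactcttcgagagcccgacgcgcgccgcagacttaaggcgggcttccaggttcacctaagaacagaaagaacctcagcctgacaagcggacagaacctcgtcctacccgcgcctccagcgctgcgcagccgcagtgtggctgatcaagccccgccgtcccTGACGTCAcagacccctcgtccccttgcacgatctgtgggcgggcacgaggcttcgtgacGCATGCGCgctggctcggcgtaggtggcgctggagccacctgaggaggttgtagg
The Hnrnpa1 window held 4 CCAAT boxes. The CCAAT box occurred in 31 of 64 promoters of the 47 members matched (48.4%) and in 37.4% of all 32851 mouse promoters, the CRE in 3.12% and 1.79%, and the NRF1 core in 7.81% and 2.71%. Of the other motifs searched, the E2F core (TTTCCCGC or TTTGGCGC) occurred in 9.38% and 1.56%, the ETS core (CCGGAAGT) in 9.38% and 3.89%, and the E-box (CACGTG) in 12.5% and 7.15%. A match describes letters in a window and is not evidence of binding.

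The deposited tables also give each gene a length averaged over its isoforms by their estimated abundance, so that a change in this isoform-weighted length reflects a change in which isoforms were counted. Lengths could be tested for 48 members, since Hnrnpa0 and Srsf6 list 1 transcript and Srsf12 and Esrp1 had too few counts. None of the 48 was called (limma paired by replicate, called at a Benjamini-Hochberg adjusted p up to 0.05), and such calls made up 0.0446% of all 8959 genes tested. The lowest limma adjusted p was 0.0938, for Hnrnpa2b1. At an unadjusted limma p under 0.05 there were 11 of the 48 members, against 993 of all 8959 genes (11.1%). In 12 of the 48 members (25%) the groups did not overlap in length, against 7.91% of all genes, and 6 of these were longer and 6 shorter in OGTi, against 4.25% and 3.66%. The 12 differences ranged from -105 to 159 bases, 8 of them reached 10 bases, as in 6.07% of all genes, and 5 of the 12 genes were also called in counts. Counts were called for 29.1% of the 709 genes whose lengths did not overlap and for 24.8% of all genes tested for length. The genes described next were picked for lengths that did not overlap, after their values were seen.

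Srsf3 and Srsf7 were longer in OGTi. Srsf3 averaged 2770, 2756, 2762 and 2766 bases in control and 2796, 2790, 2810 and 2821 in OGTi, a difference of 40.7 bases (limma adjusted p = 0.189). Srsf7, another SR protein that binds GA-rich RNA, averaged 2409, 2411, 2410 and 2407 bases in control and 2445, 2460, 2450 and 2438 in OGTi, a difference of 38.7 bases (limma adjusted p = 0.135). In both genes the spread of the control libraries was small beside the difference. Without the replicate block Srsf7 was the member called (limma adjusted p = 0.0277), and calls over all genes rose from 4 to 37 of 8959. The number of Srsf7 counts was not called as changed, with a log2 fold change of -0.06 ± 0.21 (SE, edgeR adjusted p = 0.873).

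Both genes carry an annotated exon whose inclusion leads to nonsense-mediated decay, and its borders are shown because such exons are well known in SR protein genes. Positions are those of GENCODE on GRCm39, the build of the deposited files, and capitals mark bases of the exon.
Srsf3 decay exon, acceptor, chr17:29258408-29258433, plus strand: aaaaatgaaccccgttacagAGTCAC
Srsf3 decay exon, donor, chr17:29258878-29258891, plus strand: AAACTAgtaagttt
Srsf7 decay exon, acceptor, chr17:80512505-80512530, minus strand: acctggtcaaaacctttcagGTTTCT
Srsf7 decay exon, donor, chr17:80512396-80512409, minus strand: CTTGAGgtgatcag
The Srsf3 exon is 456 bases long (chr17:29258428-29258883) and belongs to 13 of 21 decay transcripts, with the stop codon inside it in 12. The Srsf7 exon is 107 bases long (chr17:80512404-80512510) and belongs to 9 of 35 decay transcripts, with the stop codon inside it in all 9. The tables list 2 RefSeq transcripts for Srsf3, 1 of them noncoding, and 9 for Srsf7. With 2 transcripts, a greater weighted length of Srsf3 means a larger estimated share of the longer one, and which is longer was not established. For Srsf7 the gene-level length does not say which isoform moved. The use of these exons was thus not measured.

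Among hnRNPs, Hnrnpa2b1 and Hnrnpdl were shorter in OGTi. Hnrnpa2b1 averaged 2411, 2420, 2391 and 2391 bases in control and 2351, 2352, 2314 and 2331 in OGTi, a difference of -66.6 bases (limma adjusted p = 0.0938). Hnrnpdl averaged 2400 to 2449 bases in control and 2290 to 2342 in OGTi, a difference of -105 bases (limma adjusted p = 0.243). Hnrnpr was longer by 127 bases, from 8556 to 8605 bases in control to 8659 to 8746 in OGTi (limma adjusted p = 0.243). For Hnrnpdl and Hnrnpr these lengths accompany a fall in counts, and for Hnrnpa2b1 the counts were not called. Celf1, which binds GU-rich RNA, was longer by 159 bases (limma adjusted p = 0.243), Srsf2 shorter by 37.8 bases (limma adjusted p = 0.41) and Hnrnpc shorter by 11.3 bases (limma adjusted p = 0.189).

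**Figure D5:**
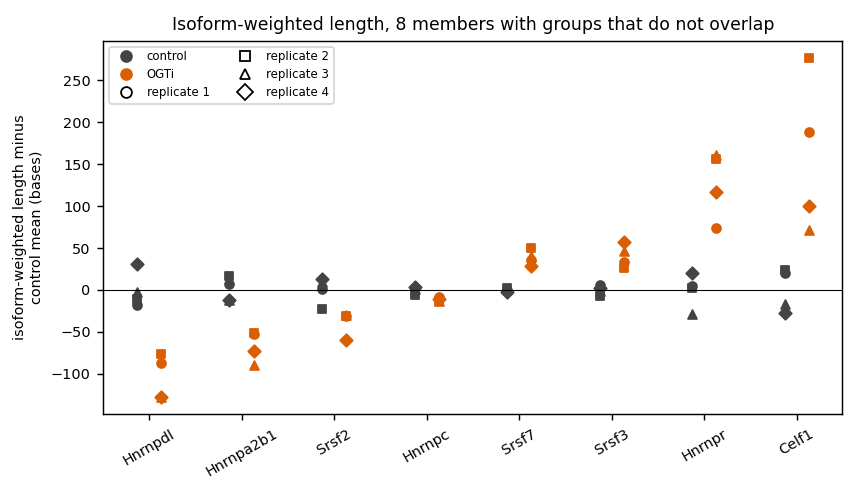
Isoform-weighted length minus the control mean, in bases, for the 8 members whose groups did not overlap and differed by at least 10 bases; each point is 1 library, control in grey and OGTi in orange. Hnrnpdl, Hnrnpa2b1, Srsf2 and Hnrnpc lie below 0 in OGTi, and Srsf7, Srsf3, Hnrnpr and Celf1 above.

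The rest of the splicing machinery was read from lists written from general knowledge, with earlier results of these data known. Of 52 core spliceosome genes 1 rose and 5 fell, or 11.5% called, against 18.4% of all genes. With limma on log2(TPM + 1) the share was 34.6%, against 23.3% of all genes. Luc7l2, which helps U1 snRNP select splice sites, rose by 1.52 ± 0.23 on the log2 scale (SE, edgeR adjusted p = 0.00196). The largest falls were those of Ddx46, a helicase of early spliceosome assembly, at -1.38 ± 0.24, and Snrpe, a shared snRNP core protein, at -1.03 ± 0.22 (SE, edgeR adjusted p = 0.00349 and 0.0108). Of 40 other splicing regulators 2 rose and 5 fell, or 17.5%, against 18.4% of all genes. The kinase gene Dyrk1a at 0.82 ± 0.24 and Nktr at 0.87 ± 0.24 rose (SE, edgeR adjusted p = 0.0387 and 0.0295). The RNA-binding protein gene Rbmx at -1.46 ± 0.22 and the epithelial factor gene Esrp2 at -1.36 ± 0.28 fell (SE, edgeR adjusted p = 0.00194 and 0.00828).

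Of 15 genes of the exon junction complex and nonsense-mediated decay, 2 fell and none rose, or 13.3% against 18.4% of all genes. Without replicate 1 the share was 20% against 16.2%, and without replicate 2 it was 13.3% against 16%. Without replicate 3 it was 13.3% against 9.9%, and without replicate 4 13.3% against 10.4%. Smg6, the endonuclease of the decay pathway, changed by -1.77 ± 0.24 (SE, edgeR adjusted p = 0.00118), and Magohb, a junction complex subunit, by -1.18 ± 0.24 (SE, edgeR adjusted p = 0.00723). The median log2 fold change was -0.23 for the core spliceosome, -0.23 for the other regulators and 0.00 for the decay genes.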

How the data were processed

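Stranded libraries of polyadenylated RNA were aligned with Bowtie2 2.3.5.1 and quantified with RSEM 1.3.1 on mm39, per the submitters' processing notes. Deposited values comprise expected counts per gene from RSEM, TPM as computed by the authors, and other estimates, the isoform-weighted and effective lengths in bases. Methods name a GENCODE annotation, whereas transcript identifiers are RefSeq ones. A further table deposited by the authors, with counts, fold changes and p-values, was not used. The expected counts, TPM, isoform-weighted length and effective length of each sample were read.

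Members and gene lists were chosen with earlier results of these data known. After rounding of expected counts to whole numbers, genes with a total of at least 10 counts were tested with edgeR 4.0.16 (R 4.3.3; TMM, glmQLFit, glmQLFTest, replicate block). Log2 isoform-weighted lengths of genes with at least 2 transcripts and a mean of at least 50 counts were tested with limma 3.58.1. P-values were Benjamini-Hochberg adjusted over all genes tested. Both scripts were run on simulated data, with counts drawn without replicate effects and length shifts placed in genes of low spread. Those runs do not measure the power for length shifts as small as those of the members. Scaled counts are counts divided by TMM-adjusted library size, times the mean of that size. The study's methods pair samples of 1 replicate, and correlations of deviations were 0.105 to 0.318 for same-numbered and -0.312 to 0.208 for other pairs. Named genes are the members called, the extremes of each role, the 3 of highest TPM, and of each list the 2 called genes of largest rise and the 2 of largest fall.

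Totals of 30068876 to 37372420 counts leave counting error small for most members, and the biological coefficient of variation was 0.342. Alternatives covered DESeq2 1.42.0, other scalings and filters, a test on log2(TPM + 1), removal of a length trend, no block, leaving out each replicate, and for lengths other filters and scales.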

Additional observations from a re-analysis of the deposited data

Results flagged for a closer look

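Among 200 groups of 4 libraries examined (scaled counts of 52 members and lengths of 48), 7 held a library that stood apart from the other 3 by Dixon's criterion, and chance gives about 10. Control replicate 4 had 292 scaled counts of Srsf6, where the other control libraries had 5027 to 5238. OGTi replicate 4 had 3035 scaled counts of Hnrnpa3, where the other OGTi libraries had 1330 to 1611. OGTi replicate 2 had 13.4 scaled counts of Esrp1, which was at 0 in the other OGTi libraries. In OGTi replicate 4 the isoform-weighted length of Srsf2 was 2634 bases, and in the other OGTi libraries it was 2662 to 2664 bases. The length of Hnrnpd was 7048 bases in OGTi replicate 1 and 7123 to 7132 bases in the other OGTi libraries. The length of Hnrnpf was 2515 bases in control replicate 1 and 2507 to 2508 bases in the other control libraries. The length of Mbnl1 was 5361 bases in control replicate 2 and 5368 to 5369 bases in the other control libraries.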

How the results depend on the processing

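Against 2 higher and 12 lower members, DESeq2 gave 4 and 13, removal of the length trend 4 and 8, upper-quartile scaling 3 and 7, library totals alone 0 and 17, no low-count filter 1 and 12, limma on log2(TPM + 1) 0 and 18, and a threshold of 0.01 gave 0 and 4. The share of all genes called was 24.3%, 20.4%, 19%, 20.9%, 16.4%, 23.3% and 8.36% in the same order, against 18.4%. A filter at a mean of at least 10 counts gave 2 and 12, with 25.1% of all genes called. Without the replicate block there were 0 and 8 (15% of all genes), and Clk4, Hnrnpc, Hnrnpa3, Hnrnpl, Srpk2 and Tra2b lost their calls. Leaving out 1 replicate gave 0 to 1 higher and 4 to 9 lower, and of the 14 called members 10, 7, 4 and 5 were kept without replicates 1, 2, 3 and 4, with 16.2%, 16%, 9.9% and 10.4% of all genes called. Core spliceosome calls went from 6 to 10 with library totals alone, 10 without the length trend, 18 with limma on TPM, 2 at 0.01, and 2 to 6 on leaving out 1 replicate. Calls among the other splicing regulators went from 7 to 10 by DESeq2 (25% against 24.3% of all genes). They went to 9 with no low-count filter (22.5% against 16.4%), library totals alone (22.5% against 20.9%) and limma on TPM (22.5% against 23.3%). Without the block they were 5, at 0.01 they were 3, and on leaving out 1 replicate 3 to 6. Length calls went from 0 to 1 without the block, where those over all genes went from 4 to 37, and stayed at 0 under the other length settings. The cause of these moves was not tested.

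The scaling moved the all-gene median (log2) from 0.01 to 0.13 (upper quartile) and -0.19 (totals alone), and the members' median less that of all genes was -0.28 in each. The log2 fold change of 16 members, none of the 14 called, changed sign under at least 1 setting. Among those with values in the text these were Hnrnpf (0.0739 with upper-quartile scaling, 0.0291 without the length trend, -0.135 to 0.0691 on leaving out 1 replicate), Srsf4 (0.0799, 0.0654 and -0.639 to 0.226), Srsf7 (0.0623, 0.00549 and -0.229 to 0.0364), Mbnl2 (-0.0919 with library totals alone, -0.221 with limma on TPM), Srsf6 (-0.0790 without the block, -0.505 to 0.737 on leaving out 1 replicate, the lowest without replicate 4) and Tra2a (-0.396 to 0.0404 on leaving out 1 replicate). In OGTi replicate 1 the median deviation was 0.59 log2 in the shortest genes and -0.47 in the longest, the widest such spread of the 8 libraries.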
